A study of Mus musculus with 24 samples.

Results

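The aminoacyl-tRNA synthetases were followed as a gene family: the 20 nuclear genes whose enzymes charge tRNAs in the cytosol and the 15 whose enzymes work in mitochondria. Members were all probes annotated to these 35 gene symbols, where a newer symbol with an added 1 counted as the same gene (the methionine enzyme Mars is annotated as Mars1). Of the 35 genes, 34 had a probe, out of 19057 genes with a symbol on the array, and they held 74 of its 45281 probes. No probe carried the symbol Dars in the annotation used here, and Dars was not analysed.

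RNA came from male C57BL6/J mice of 8 months in 3 groups of 8 samples, with 1 Illumina mouse BeadChip array per sample: mice on 40% dietary restriction (DR), mice given rapamycin at 14 ppm (Rapa) and mice fed ad libitum (AL). Treatment had begun at 2 months of age and lasted 6 months. Rapamycin inhibits the mTOR complex that drives protein synthesis, and no engineered allele is named for any group. Whether the samples were separate animals is not stated, and the p-values cover only their spread.

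Aminoacyl-tRNA synthetases join each amino acid to its tRNA, the step that fixes the genetic code before the ribosome reads it. Class I and class II enzymes have unrelated catalytic folds, several cytosolic enzymes are held together with scaffold proteins in the multisynthetase complex, and mitochondria import a largely separate set for the proteins encoded by their own DNA. In mammalian cells the transcription factor ATF4 raises many cytosolic synthetase genes when uncharged tRNA or other stress activates the integrated stress response, and mTOR signalling feeds into the same factor.

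The labels disagree on the tissue: epididymal fat in the source and design text, liver in the tissue field and protocol. Of 11 adipocyte markers 10 were detected on all 24 arrays, and of 12 hepatocyte markers 0 were, with Alb, Fgb and Tat detected on 0 arrays. Between 13012 and 17593 probes were detected on the DR arrays, 13722 to 19203 on the Rapa arrays and 14657 to 18772 on the AL arrays. A median of epididymis and testis markers exceeded 6 (log2 intensity) on 5 DR, 3 Rapa and 0 AL arrays. Macrophage markers averaged 8.22 to 9.13 on the DR arrays, 8.82 to 10.17 on the Rapa arrays and 8.90 to 10.04 on the AL arrays. Sample numbers that differ by 4 (1 and 5, 2 and 6, and so on) were put in 1 number class. For each class, the mean deviation of its arrays in 1 group was correlated with that in another group. All 12 correlations were above 0.1 (0.13 to 0.65). Arrays 4 numbers apart were not correlated with each other directly. The upper quartile of intensity was 15.0 to 29.8 on arrays numbered 1 and 5 and 73.7 to 111.7 on those numbered 2 and 6. It was 32.6 to 80.7 on those numbered 3 and 7 and 42.7 to 66.9 on those numbered 4 and 8, so brightness did not separate all classes. The labels do not say what the numbers mean, and results that change when the class is included as a block are given with it.

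Members had a log2 intensity on a scale that was background-corrected and quantile-normalized over the 24 arrays, and a probe was kept where its detection p was under 0.05 on at least 8 arrays. This left 49 of the 74 member probes, of 29 genes, among 17165 probes of 9836 named genes. Where a gene kept several probes, the one of highest mean stands for it unless another is named. Levels of different probes depend on the probe sequence and are not set against each other. The 29 measured genes are 18 cytosolic and 11 mitochondrial, and 20 of them (14 cytosolic, 6 mitochondrial) were detected on every array. The measured genes detected on a single array numbered 23 to 28 in DR, 25 to 28 in Rapa and 25 to 29 in AL.

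No measured synthetase gene passed the test in either treatment relative to AL, and 3 genes, Mars, Vars2 and Pars2, were higher in DR than in Rapa. In DR against AL, 0 of 29 genes passed limma's moderated test at an adjusted p under 0.05 (Benjamini-Hochberg over all kept probes), against 11.7% of all measured genes. At an unadjusted p under 0.05 the count was 0 of 29, against 25.2% of all genes. In Rapa against AL, 0 of 29 genes were called, against 0.153% of all genes, and 1 (Mars) had an unadjusted p under 0.05, against 9.61%. In DR against Rapa, 3 of 29 genes were called, all higher in DR, against 11.4% of all genes called either way and 5.88% called higher, and 5 had an unadjusted p under 0.05, against 24.4%. The member share in DR against Rapa is therefore near that of the whole array. Of the 20 genes detected on every array, 0, 0 and 2 were called in these 3 comparisons, against 13.7%, 0.130% and 13.8% of all genes so detected. Counted over the 49 kept member probes, 0 were called and 2 had an unadjusted p under 0.05 in DR against AL, against 10.6% and 23.2% of all probes. In Rapa against AL 0 were called and 5 had an unadjusted p under 0.05, against 0.134% and 9.36% of all probes. The 3 comparisons share their arrays and are not independent of each other.

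The 29 differences pointed both ways in each comparison. In DR against AL, 14 genes lay above 0 and 15 below, with a median log2 difference of -0.03, where the median of all genes was -0.01. In Rapa against AL, 8 lay above 0 and 21 below, with a median of -0.16, against -0.01 for all genes. In DR against Rapa, 21 lay above 0 and 8 below, with a median of 0.09, against -0.01 for all genes; under median scaling these medians were -0.01 and -0.09. Under median scaling 3 of 29 genes lay above 0 in DR against AL, 1 in Rapa against AL and 13 in DR against Rapa, where the median of all genes also shifted, to -0.28, -0.21 and -0.09. In bulk tissue a lower share of cells that express a gene and less RNA per cell cannot be told apart.

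**Figure D1:**
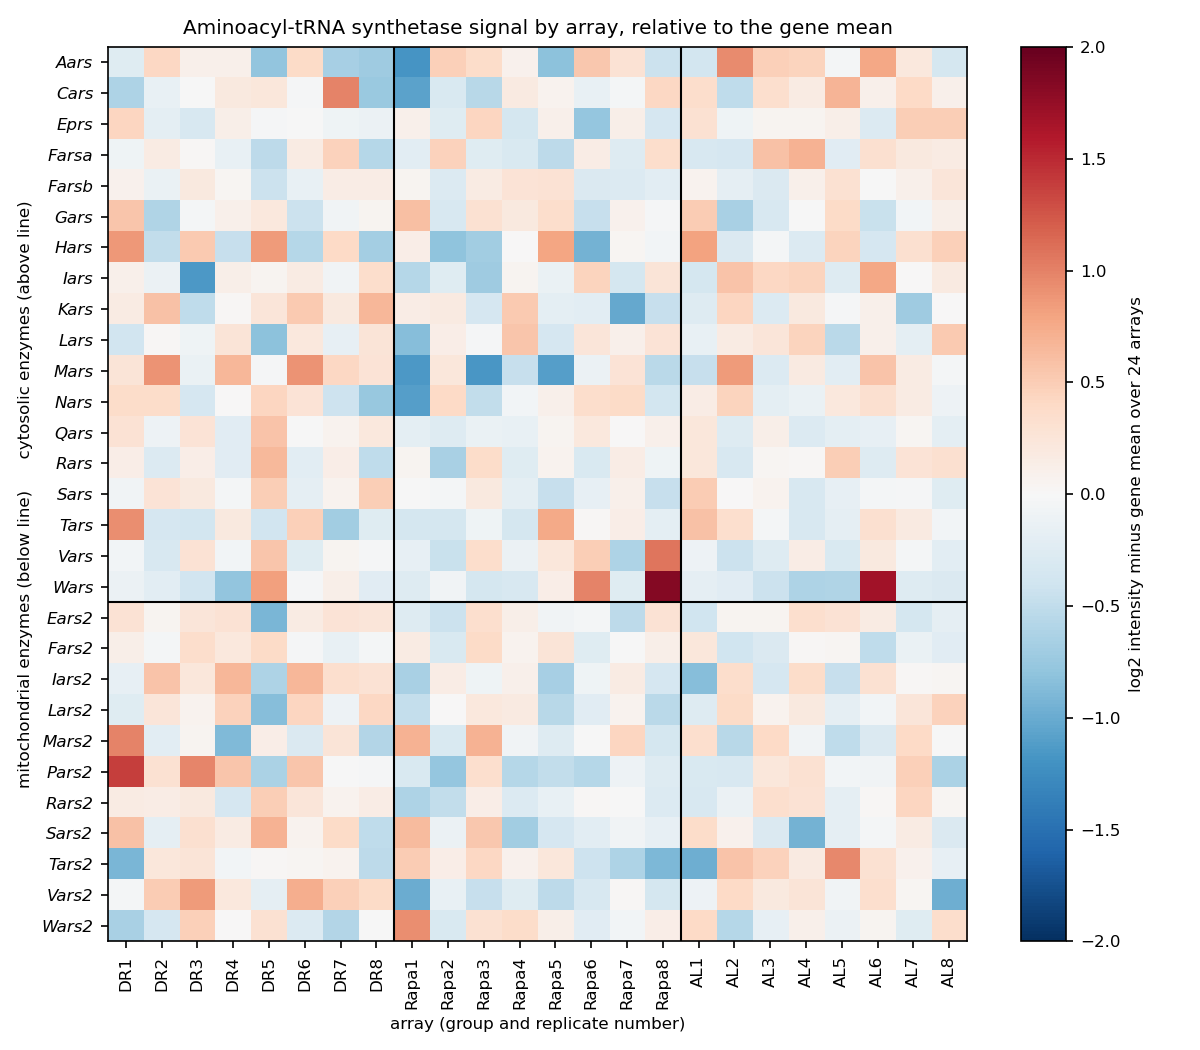
Heat map of the 29 measured synthetase genes (down the page, cytosolic above mitochondrial) on the 24 arrays (across, DR, then Rapa, then AL); colour is the log2 intensity minus the gene's mean over all arrays. Mars, Vars2 and Pars2 are mostly above their mean on DR arrays and below it on Rapa arrays, and Wars stands out on 4 arrays from all 3 groups.

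The intervals set how large a change could have been missed. The 95% confidence interval of a member's log2 difference reached 0.26 to 0.65 to either side, with a median of 0.40. In DR against AL it stayed within a 2-fold change in either direction for 29 of 29 genes and within 1.5-fold for 17. In Rapa against AL it stayed within 2-fold for 28, with Mars the exception, and within 1.5-fold for 14. Over all 49 kept member probes the interval stayed within 2-fold for 46 in each comparison with AL. The exceptions were the dimmer Iars probe and 2 dimmer Wars probes in DR, and the brighter Mars probe and 2 dimmer Wars probes in Rapa.

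**Figure D2:**
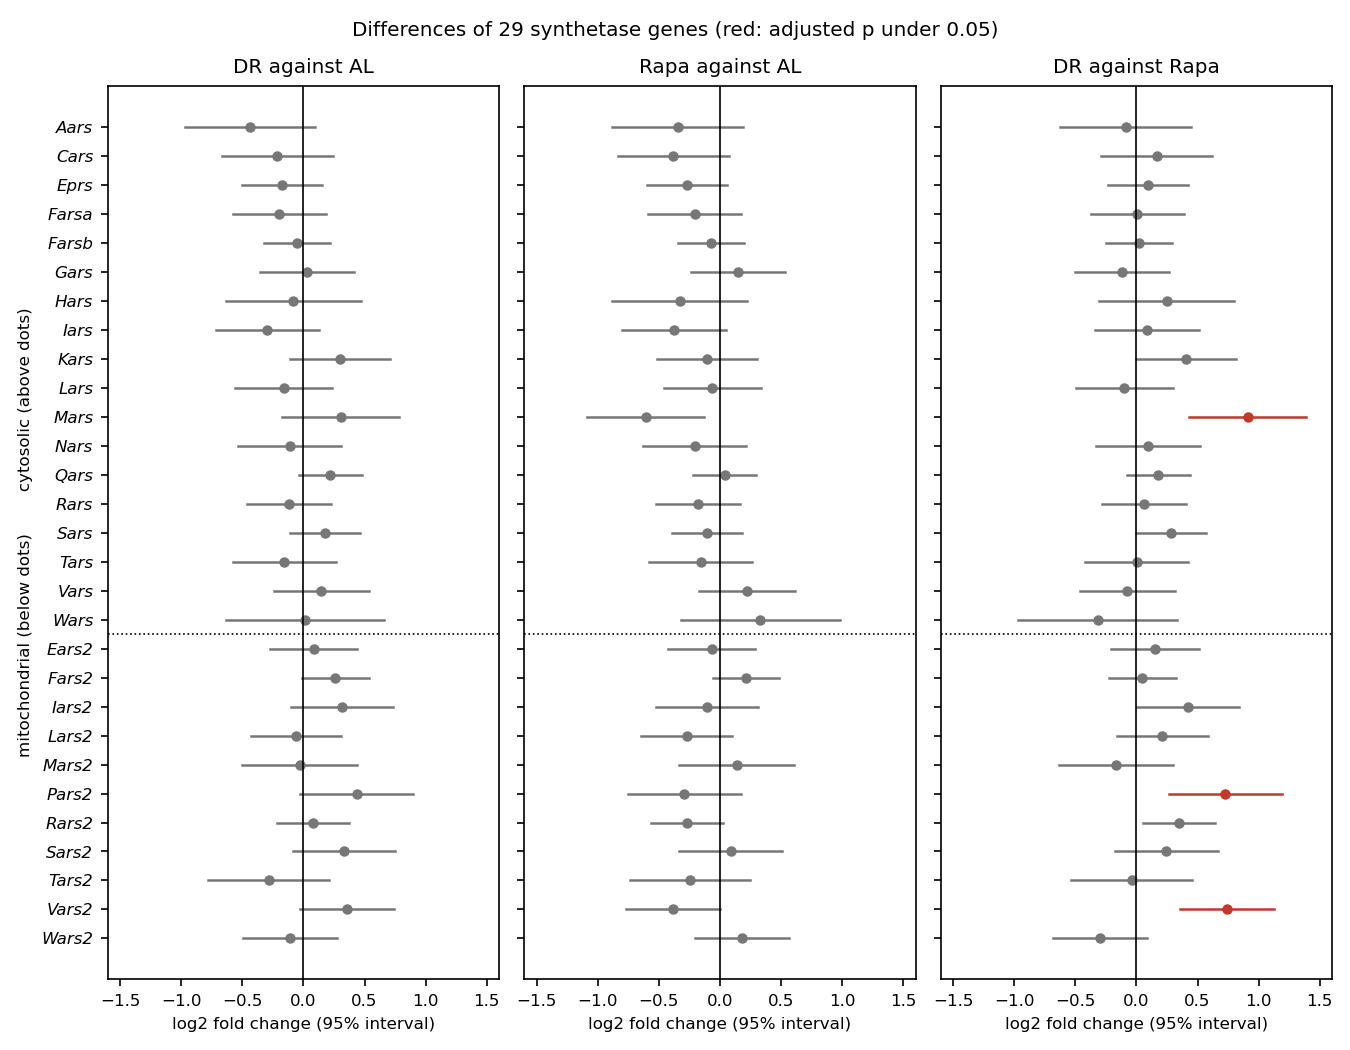
Log2 difference of each measured synthetase gene with its 95% confidence interval in DR against AL, Rapa against AL and DR against Rapa (3 panels, genes down the page). All intervals of the DR against AL panel include 0, and Mars, Vars2 and Pars2 lie farthest above 0 in the DR against Rapa panel.

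Of the enzymes of the multisynthetase complex, 7 of 8 were measured (Eprs, Iars, Kars, Lars, Mars, Qars and Rars). None was called in DR against AL or Rapa against AL, with medians of -0.12 and -0.18, and Mars alone was called in DR against Rapa. Of all genes 11.7%, 0.153% and 11.4% were called in these comparisons. Mars charges both the initiator and the elongator methionine tRNA. On its brighter probe the 8 DR arrays ran from 7.02 to 8.06 with a median of 7.50, the Rapa arrays from 6.00 to 7.43 with a median of 6.66, and the AL arrays from 6.70 to 8.01 with a median of 7.23. Mars was low on the Rapa arrays, although DR and Rapa overlapped: 4 of 8 DR arrays lay above every Rapa array. Means were 7.56 ± 0.39 in DR, 6.65 ± 0.60 in Rapa and 7.26 ± 0.44 in AL (SD, n = 8 each). The log2 difference of DR from Rapa was 0.91 ± 0.23 (SE, limma adjusted p = 0.0109), and it lay between 0.58 and 1.25 within the 4 number classes. DR differed from AL by 0.30 ± 0.23 (limma adjusted p = 0.478) and Rapa from AL by -0.61 ± 0.23 (limma adjusted p = 0.404, interval -1.09 to -0.13). The dimmer Mars probe did not show this pattern. It averaged 6.17 ± 0.48 in DR, 6.06 ± 0.56 in Rapa and 5.81 ± 0.46 in AL, with a difference of DR from Rapa of 0.11 ± 0.24 (limma adjusted p = 0.856). With both probes averaged, the difference of DR from Rapa was 0.51 (limma adjusted p = 0.0546), which ends the call.

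The other complex enzymes were not called in any comparison by the probe that stands for them. Qars, which charges glutamine tRNA, averaged 10.12 ± 0.25 in DR, 9.94 ± 0.16 in Rapa and 9.90 ± 0.19 in AL. Its DR value exceeded AL by 0.22 ± 0.13 (limma adjusted p = 0.312). The other Qars probes gave differences of DR from AL of 0.14 and 0.22, and Rapa differed from AL by 0.04, -0.01 and 0.14 on the 3 probes. Eprs, the fused enzyme for glutamate and proline, had differences of DR from AL of -0.17, -0.28 and 0.06 and of Rapa from AL of -0.27, -0.54 and -0.28 on its 3 kept probes. Of these the probe of middle brightness reached an unadjusted p = 0.00635 in Rapa against AL (limma, adjusted p = 0.305), and 6 of 8 Rapa arrays lay below every AL array. Kars, a single gene whose splice forms serve the cytosol and mitochondria, averaged 8.17 ± 0.38 in DR, 7.76 ± 0.47 in Rapa and 7.87 ± 0.35 in AL. Its DR value exceeded Rapa by 0.41 ± 0.20 (limma adjusted p = 0.228), and its dimmer probe gave 0.17 ± 0.17. Against AL the 2 Kars probes gave 0.30 and 0.24 in DR and -0.10 and 0.07 in Rapa.

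Rars, Iars and Lars, for arginine, isoleucine and leucine, had negative differences of DR from AL on every kept probe, and none was called. Rars gave -0.12 ± 0.17 on its brighter probe and -0.36 ± 0.14 on the other (limma unadjusted p = 0.0172, adjusted p = 0.111), where 6 of 8 DR arrays lay below every AL array. Iars gave -0.29 ± 0.21 and -0.57 ± 0.29, and Lars -0.16 ± 0.19 and -0.32 ± 0.17. In DR against Rapa the Iars probes gave 0.08 and -0.27 and the Rars probes 0.06 and -0.06, so neither gene had a settled direction there.

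The 3 free class I enzymes measured, Cars, Vars and Wars, were not called in any comparison. The shares of all genes called were 11.7% in DR against AL, 0.153% in Rapa against AL and 11.4% in DR against Rapa. Vars, the valine enzyme that binds elongation factor 1, differed from AL by 0.15, 0.15 and -0.16 in DR and by 0.22, 0.21 and -0.26 in Rapa on its 3 kept probes, the last a probe detected on 9 of 24 arrays. Cars, for cysteine, averaged 6.04 ± 0.54 in DR, 5.87 ± 0.46 in Rapa and 6.25 ± 0.34 in AL, and differed from AL by -0.22 ± 0.22 in DR and -0.38 ± 0.22 in Rapa.

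Wars, for tryptophan, had the largest SD of the 29 genes in Rapa and in AL, though not in DR. Wars is induced by interferon gamma in many mammalian cells. On its brightest probe the DR arrays ran from 7.72 to 9.33 with a median of 8.34, the Rapa arrays from 8.16 to 10.34 with a median of 8.36, and the AL arrays from 7.89 to 10.19 with a median of 8.23. The values above 9 were 9.33 on DR array 5, 9.50 on Rapa array 6, 10.34 on Rapa array 8 and 10.19 on AL array 6, while the other 20 arrays lay between 7.72 and 8.65. Each group held at least 1 of these arrays, and the group differences were 0.01 ± 0.32 for DR from AL and 0.33 ± 0.32 for Rapa from AL. The other 3 kept probes gave 0.27, -0.08 and 0.45 for DR from AL and 0.40, 0.09 and 0.50 for Rapa from AL, from brighter to dimmer. On its dimmest kept probe the same 4 arrays were again the highest, at 6.81, 6.47, 6.81 and 7.21, against at most 6.20 elsewhere. On its other kept probes Rapa array 6 was within the range of the rest. The median of the 14 epididymis and testis markers with a probe was 9.22 on DR array 5, 7.89 on Rapa array 6 and 9.81 on Rapa array 8, but 4.74 on AL array 6. Defb42, a defensin of the epididymis chosen from that list after its values were seen, read 13.01, 12.09, 13.03 and 12.49 on these arrays. The other 9 markers with a kept probe lay between 4.49 and 7.39 on AL array 6. Defb42 also read 11.65 on DR array 1, 10.75 on DR array 3 and 10.95 on DR array 8. On those 3 arrays the brightest Wars probe read 8.38, 8.13 and 8.29. Of the 8 arrays with a marker median over 6, Wars was above 9 on 3. Of 14 listed interferon gamma genes 11 were measured. In the 3 comparisons 0 of them were called, against 11.7%, 0.153% and 11.4% of all genes. A test between groups does not bear on single arrays that are spread over the groups. Ido1, chosen from the interferon gamma genes after its values were seen, read 8.81 on DR array 5. It read 8.00 on Rapa array 6 and 10.74 on Rapa array 8, but 5.24 on AL array 6. Of the other 20 arrays it was highest on DR array 1, at 10.01, where Wars was not high. Whether the Wars values share a source with epididymal RNA or with the Ido1 values was not tested.

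**Figure D3:**
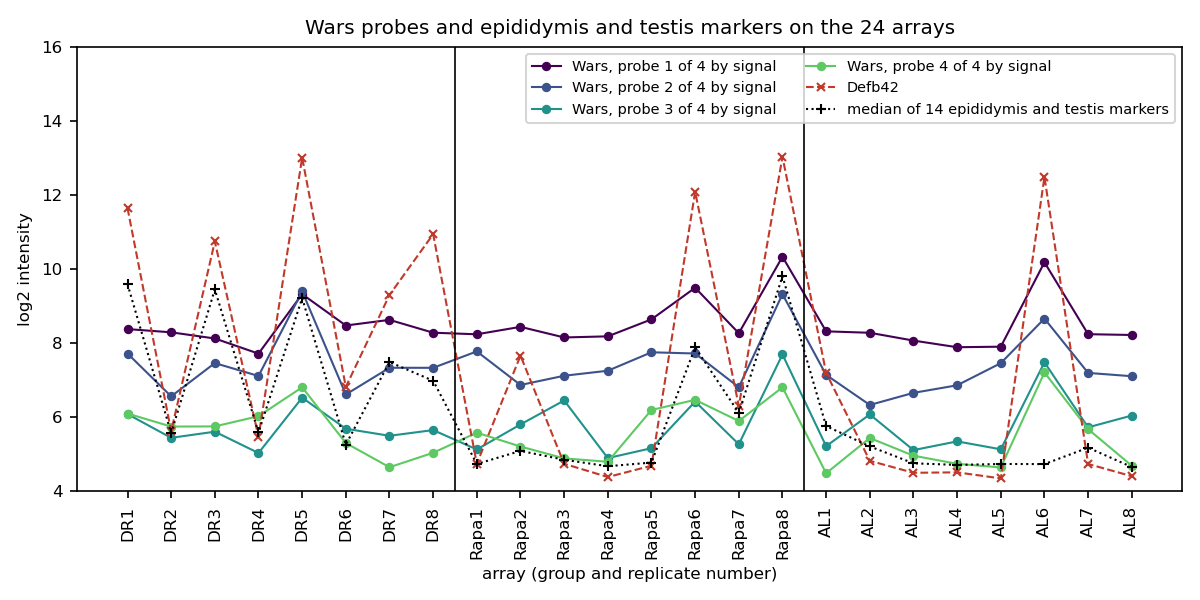
Log2 intensity of the 4 kept Wars probes of Defb42 and of the median of 14 epididymis and testis markers on each of the 24 arrays (across, DR, then Rapa, then AL). On the brightest Wars probe DR array 5, Rapa arrays 6 and 8 and AL array 6 stand above 9. Defb42 is above 12 on the same 4 arrays, but also reaches 11.65 on DR array 1, where Wars is not high. The marker median is 4.74 on AL array 6.

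Of the free class II enzymes, 8 were measured (Aars, Farsa, Farsb, Gars, Hars, Nars, Sars and Tars), and 0 were called in any comparison. The shares of all genes called were 11.7% in DR against AL, 0.153% in Rapa against AL and 11.4% in DR against Rapa. The differences of these 8 enzymes ran from -0.44 to 0.18 for DR from AL and from -0.35 to 0.15 for Rapa from AL. Aars, for alanine, was the lowest of these in DR. Its DR arrays ran from 7.87 to 9.08 with a median of 8.59, its Rapa arrays from 7.48 to 9.19 with a median of 8.84 and its AL arrays from 8.30 to 9.60 with a median of 8.99. The groups overlapped, and the difference of DR from AL was -0.44 ± 0.26 (limma adjusted p = 0.336), between -0.62 and -0.31 within the 4 number classes. Gars, which serves both compartments for glycine, averaged 12.09 ± 0.36 in DR, 12.21 ± 0.35 in Rapa and 12.06 ± 0.40 in AL. Farsb, the beta subunit of the phenylalanine enzyme, averaged 10.50 ± 0.21, 10.48 ± 0.26 and 10.55 ± 0.20 in the same order, and its 2 probes differed from AL by -0.06 and 0.03 in DR. The alpha subunit gene Farsa was detected on 11 of 24 arrays and differed from AL by -0.20 ± 0.19 in DR and -0.21 ± 0.19 in Rapa.

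The probes of Hars disagreed in direction in DR against Rapa, and those of Sars did not. Hars, for histidine, differed from AL in DR by -0.08 ± 0.27 on its brighter probe, detected on 17 arrays, and by -0.38 ± 0.16 on the other, detected on 10 arrays (limma unadjusted p = 0.0217, adjusted p = 0.128, or 0.0485 once the number class was blocked). In DR against Rapa the 2 Hars probes gave 0.25 and -0.14. Sars, for serine, exceeded Rapa in DR by 0.28 ± 0.14 (limma adjusted p = 0.23) and on its dimmer probe by 0.61 ± 0.21 (limma adjusted p = 0.0652, and 0.029 with the class block). Tars, for threonine, was detected on 9 arrays and Nars, for asparagine, on all 24, with differences of DR from AL of -0.16 and -0.11.

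Among the 11 measured mitochondrial genes Vars2 and Pars2 were called in DR against Rapa, both higher in DR. Of all genes 11.4% were called either way in that comparison and 5.88% were called higher. In that comparison 8 of the 11 lay above 0 and 3 below, with a median log2 difference of 0.21 (0.11 under median scaling). Against AL their median was 0.08 in DR (-0.25 under median scaling) and -0.11 in Rapa (-0.39 under median scaling). In these 2 comparisons 0 of the 11 were called, against 11.7% and 0.153% of all genes. The mean over the 11 genes on an array ran from 7.03 to 7.50 in DR with a median of 7.25, from 6.89 to 7.39 in Rapa with a median of 6.99, and from 6.96 to 7.24 in AL with a median of 7.14. These ranges overlapped. The mean over the 18 cytosolic genes ran from 7.88 to 8.15 in DR, 7.67 to 8.07 in Rapa and 8.00 to 8.21 in AL, and the cytosolic median difference of DR from Rapa was 0.07, or -0.04 under median scaling.

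Vars2 charges mitochondrial valine tRNA. The DR arrays ran from 6.47 to 7.51 with a median of 7.09, the Rapa arrays from 5.66 to 6.68 with a median of 6.33 and the AL arrays from 5.68 to 7.05 with a median of 6.77. DR was high, with 6 of 8 DR arrays above every Rapa array, and AL lay between and overlapped both. The means were 7.02 ± 0.36 in DR, 6.28 ± 0.30 in Rapa and 6.66 ± 0.44 in AL, and DR exceeded Rapa by 0.74 ± 0.19 (limma adjusted p = 0.00957). The difference from AL was 0.36 ± 0.19 in DR (limma adjusted p = 0.254) and -0.38 ± 0.19 in Rapa (limma adjusted p = 0.534). Within the number classes DR exceeded Rapa by 0.59 to 0.89.

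Pars2, for mitochondrial proline tRNA, was near the detection limit, with detection on 7 DR, 4 Rapa and 7 AL arrays. The DR arrays ran from 5.01 to 7.02 with a median of 6.07, the Rapa arrays from 4.88 to 5.98 with a median of 5.25 and the AL arrays from 5.01 to 6.12 with a median of 5.58. The DR values were spread widely, and 4 of 8 lay above every Rapa array. DR exceeded Rapa by 0.73 ± 0.23 (limma adjusted p = 0.0369), and by 0.37 to 1.09 within the number classes. This call rested on single arrays: it was lost in 8 of 24 fits that each left out 1 array (DR array 1, 3, 4 or 6, or Rapa array 2, 4, 5 or 6), with an adjusted p of up to 0.0838. Against AL the difference was 0.44 ± 0.23 in DR (limma adjusted p = 0.249) and -0.29 ± 0.23 in Rapa (limma adjusted p = 0.713).

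Iars2 and Rars2, for mitochondrial isoleucine and arginine tRNA, each passed the test on a single dimmer probe. Counted by probe, 5 of 49 member probes were called in DR against Rapa, all higher in DR, against 5.37% of all probes called higher, and 8 had an unadjusted p under 0.05, against 22.3%. On the middle of the 3 Rars2 probes, DR arrays ran from 7.62 to 8.39 with a median of 7.75, Rapa arrays from 6.65 to 7.58 with a median of 7.34 and AL arrays from 7.36 to 7.88 with a median of 7.56. DR and Rapa did not overlap on this probe, which held for 1.17% of all kept probes in the same direction. The difference of DR from Rapa was 0.62 ± 0.15 (limma adjusted p = 0.00643), with 0.22 to 1.04 within the number classes. The brightest and the dimmest Rars2 probe gave 0.35 ± 0.14 (limma adjusted p = 0.135) and 0.40 ± 0.20 (limma adjusted p = 0.251), in the same direction. Rapa differed from AL by -0.27, -0.32 and -0.30 on the 3 probes, none of them called, and DR from AL by 0.08, 0.30 and 0.10.

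On the dimmer Iars2 probe the DR arrays ran from 8.08 to 8.71 with a median of 8.30, the Rapa arrays from 7.33 to 8.22 with a median of 7.81 and the AL arrays from 7.83 to 8.44 with a median of 8.09. The DR arrays were high, with 5 of 8 above every Rapa array. The difference of DR from Rapa was 0.51 ± 0.14 (limma adjusted p = 0.0157), with 0.28 to 0.73 within the number classes. The brighter probe averaged 9.70 ± 0.44 in DR, 9.28 ± 0.34 in Rapa and 9.38 ± 0.44 in AL, and DR exceeded Rapa by 0.42 ± 0.20 (limma adjusted p = 0.22, and 0.0124 with the class block). The called probes of Iars2, Mars, Rars2 and Vars2 kept their calls in 24 of 24 fits that left out 1 array. Without the 8 arrays on which epididymis and testis markers exceeded 6, Mars (1.55, limma adjusted p = 0.00763) and Vars2 (0.95, limma adjusted p = 0.0437) were still called in DR against Rapa. The calls of Pars2 (0.83, adjusted p = 0.0651), Rars2 (0.60, adjusted p = 0.0722) and Iars2 (0.50, adjusted p = 0.128) were lost on those 16 arrays (limma). This exclusion left DR arrays 2, 4 and 6 and Rapa arrays 1 to 5. DR thus kept no array of number classes 1 and 3, while Rapa did. These 5 differences therefore mix treatment with number class, and the part of epididymal RNA in them was not tested. With median scaling in place of quantile normalization none of the 5 probes was called, with differences of 0.41 to 0.70. Macrophage markers were called lower in DR than in Rapa for 7 of 12 measured genes, adipocyte markers higher for 3 and lower for 1 of 11, lymphocyte markers lower for 1 of 5, and epididymis and testis markers higher for 2 of 10. In DR against AL, 5 macrophage and 1 adipocyte marker were lower, and 3 of 6 mesothelial and 5 epididymis and testis markers were higher. In Rapa against AL 0 markers of these lists were called. Of all measured genes 11.4% were called in DR against Rapa, 11.7% in DR against AL and 0.153% in Rapa against AL. The part of the macrophage, adipocyte, lymphocyte and mesothelial markers in the member differences was not tested.

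**Figure D4:**
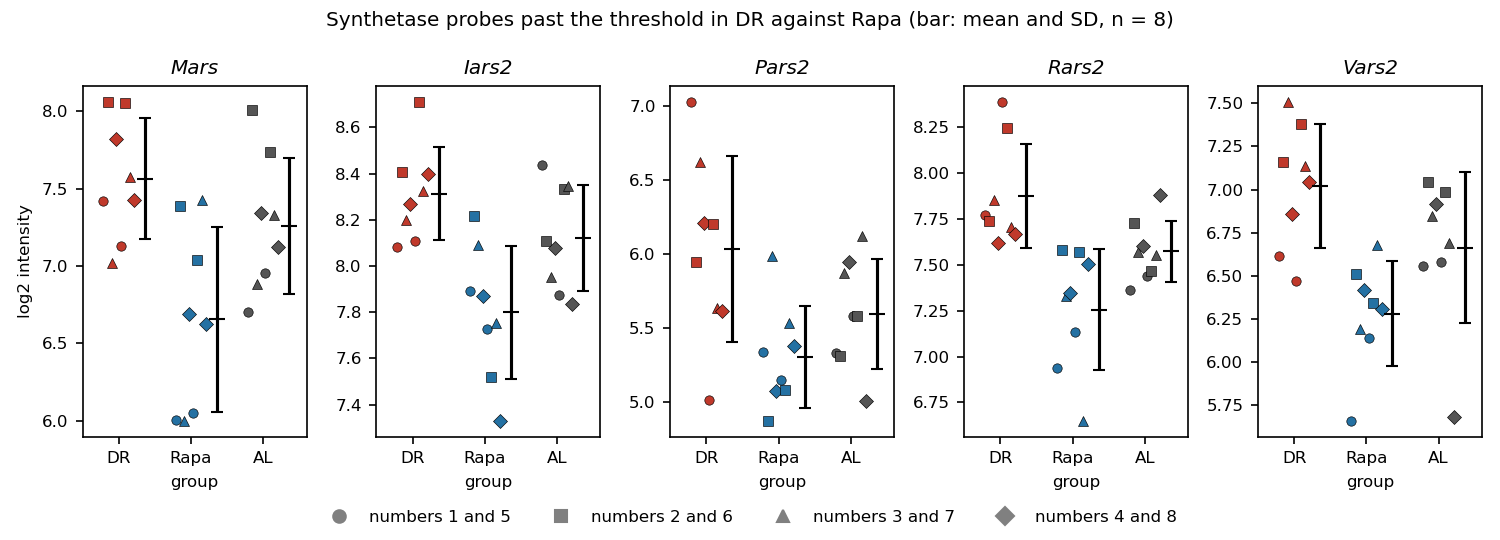
Log2 intensity of the 5 member probes called in DR against Rapa (Mars, Vars2, Pars2 and the dimmer probes of Iars2 and Rars2) on the arrays of DR, Rapa and AL, with group means and SDs and with symbols for the 4 number classes. DR is highest and Rapa lowest in mean on each of the 5 probes, and only the Rars2 probe has no overlap of DR with Rapa.

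The other 7 measured mitochondrial genes, Ears2, Fars2, Lars2, Mars2, Sars2, Tars2 and Wars2, were not called, with differences of DR from Rapa from -0.29 to 0.25. Fars2, for phenylalanine, had the smallest adjusted p in DR against AL among the 29 genes, each by its brightest kept probe. It averaged 9.94 ± 0.20 in DR, 9.89 ± 0.24 in Rapa and 9.68 ± 0.24 in AL, with differences from AL of 0.26 ± 0.13 in DR (limma adjusted p = 0.239) and 0.21 ± 0.13 in Rapa. Both differences were positive in each of the 4 number classes. Wars2, for tryptophan, gave the lowest of the differences of DR from Rapa, at -0.29 ± 0.19 (limma adjusted p = 0.387).

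Of the measured members 14 had more than 1 kept probe. In each of the 3 comparisons the probes of 10 of these 14 genes pointed the same way. The exceptions were Eprs, Farsb, Vars and Wars in DR against AL, Kars, Mars, Qars and Vars in Rapa against AL, and Hars, Iars, Rars and Vars in DR against Rapa.

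**Figure D5:**
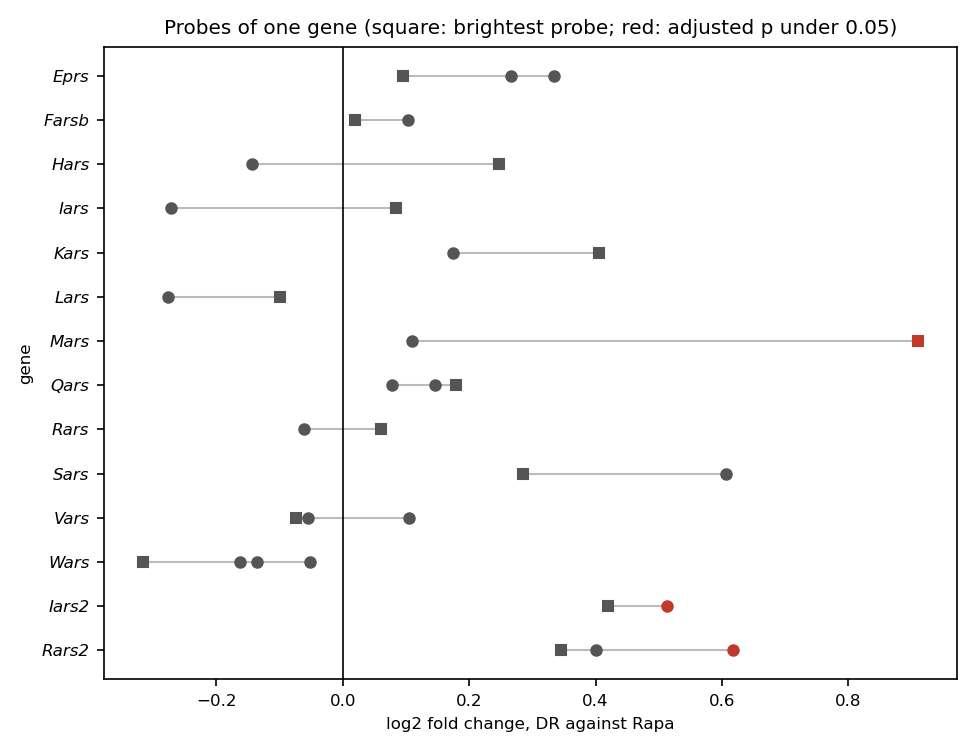
Log2 difference of DR from Rapa for every kept probe of the 14 synthetase genes with more than 1. The grey line runs from a gene's lowest to its highest probe and is not a confidence interval. The probes of Iars2 and Rars2 all lie above 0, whereas the 2 probes of Mars lie at 0.91 and 0.11.

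The 5 genes without a kept probe were Yars, Aars2, Hars2, Nars2 and Yars2. Their probes were detected on 2 (Yars), 7 (Aars2), 0 (Hars2, 2 probes), 1 (Nars2) and 2 (Yars2) of 24 arrays, and no differences are given for them.

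ATF4 acts through composite elements of the form TGATGNAA, so promoters of the members were searched for these letters on both strands. The windows, taken from RefSeq with coordinates of GRCm38.p6, ran from 250 bases before to 50 after each gene's start, and 26 of the 35 members had an entry. The letters were found in Aars, Gars, Iars, Tars and Yars, that is 5 of 13 cytosolic and 0 of 13 mitochondrial members, and in 4.51% of all genes with a window. A match is a string of letters, not a shown binding site. The 5 windows are printed from 130 bases before to 30 after the start because they hold every match, with the match in capitals (TTNCATCA where it lies on the other strand).
Aars (chr8:111033712-111033871, + strand): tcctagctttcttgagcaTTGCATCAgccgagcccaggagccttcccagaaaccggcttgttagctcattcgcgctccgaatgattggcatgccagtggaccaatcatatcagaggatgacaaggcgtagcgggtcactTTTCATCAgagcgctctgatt
Gars (chr6:55037871-55038030, + strand): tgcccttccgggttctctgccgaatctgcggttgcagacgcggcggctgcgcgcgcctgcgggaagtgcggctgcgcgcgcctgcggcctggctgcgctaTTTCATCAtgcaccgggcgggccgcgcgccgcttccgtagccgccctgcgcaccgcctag
Iars (chr13:49682000-49682159, + strand): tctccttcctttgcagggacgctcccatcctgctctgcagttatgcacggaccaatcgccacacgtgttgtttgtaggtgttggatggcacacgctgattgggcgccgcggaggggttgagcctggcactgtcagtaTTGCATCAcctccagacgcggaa
Tars (chr15:11399629-11399788, - strand): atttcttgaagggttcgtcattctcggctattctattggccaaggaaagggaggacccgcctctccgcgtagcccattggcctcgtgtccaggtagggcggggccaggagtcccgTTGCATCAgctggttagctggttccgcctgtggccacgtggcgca
Yars (chr4:129189773-129189932, + strand): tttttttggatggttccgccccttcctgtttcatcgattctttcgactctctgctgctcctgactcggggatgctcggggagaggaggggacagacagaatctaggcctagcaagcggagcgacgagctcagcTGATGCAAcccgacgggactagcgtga

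Aars holds 2 matches, at -112 to -105 and at 10 to 17 counted from the start, and Gars (-30 to -23), Iars (8 to 15), Tars (-15 to -8) and Yars (4 to 11) hold 1 each. The differences of DR from AL of the 4 measured genes were -0.44 for Aars, 0.03 for Gars, -0.29 for Iars and -0.16 for Tars, none of them called. Of 12 cytosolic synthetases listed as known ATF4 targets in mammalian cells, 11 were measured. Their median difference was -0.16 in DR against AL, -0.21 in Rapa against AL and 0.08 in DR against Rapa. Of these 11 genes 0, 0 and 1 (Mars) were called, against 11.7%, 0.153% and 11.4% of all genes.

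Other genes of the ATF4 pathway were called in both directions in DR against AL, but Atf4 itself was not called. Of 23 listed genes outside the synthetases 19 were measured. In DR against AL 1 was higher and 3 were lower, against 11.7% of all measured genes called either way. In Rapa against AL 0 were called, against 0.153% of all genes. In DR against Rapa 3 were higher and 0 lower, against 11.4% of all genes called either way and 5.88% called higher. Chac1, which degrades glutathione, rose in DR by 2.02 ± 0.27 relative to AL (limma adjusted p = 1.33e-05). It was also higher in DR than in Rapa, by 1.97 (limma adjusted p = 2.00e-05). Slc3a2, the heavy chain of amino acid transporters, was lower (limma adjusted p = 0.0051), at 5.00 ± 0.24 in DR against 5.77 ± 0.32 in AL; it was detected on 1 DR and 8 AL arrays, so the DR level lies near the background and the size of the fall is uncertain. The very low density lipoprotein receptor gene Vldlr fell by 0.85 (limma adjusted p = 0.0108) and the stress factor gene Ddit3 fell by 0.77 (limma adjusted p = 0.018). Asns, which makes asparagine, averaged 10.44 ± 0.46 in DR, 9.47 ± 0.54 in Rapa and 9.79 ± 0.29 in AL, and was higher in DR than in Rapa by 0.96 ± 0.22 (limma adjusted p = 0.00367). Trib3, a pseudokinase that restrains ATF4, was higher in DR than in Rapa by 0.70 ± 0.23 (limma adjusted p = 0.0484). Atf4 mRNA averaged 8.20 ± 0.75 in DR, 8.33 ± 1.00 in Rapa and 8.59 ± 1.02 in AL, and was not called in any comparison. ATF4 is regulated largely in translation, which these arrays do not measure.

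Among the partners of the synthetases few were called, where 11.7% of all genes were called in DR against AL and 11.4% in DR against Rapa. The scaffold gene Eef1e1 of the multisynthetase complex averaged 6.98 ± 0.31 in DR, 7.18 ± 0.64 in Rapa and 7.74 ± 0.52 in AL, and was lower in DR than in AL by -0.76 ± 0.24 (limma adjusted p = 0.0432). The other scaffold genes, Aimp1 and Aimp2, differed from AL by 0.11 ± 0.17 and -0.28 ± 0.16 in DR and were not called. Of 5 cytosolic elongation factor genes 0 were called in any comparison. Of 9 mitochondrial partners 1 was called in DR against Rapa, the elongation factor gene Tufm, which brings charged tRNA to the mitochondrial ribosome. Its DR arrays ran from 10.70 to 11.24 with a median of 10.92, its Rapa arrays from 9.93 to 10.73 with a median of 10.38 and its AL arrays from 10.41 to 10.87 with a median of 10.51. The DR and Rapa arrays overlapped by a narrow margin, and the difference was 0.57 ± 0.13 (limma adjusted p = 0.0033).

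Of 8 genes for tRNA export, end repair and proofreading 6 were measured, and Dtd2, which removes wrongly charged amino acids, was higher in DR than in Rapa by 0.69 ± 0.22 (limma adjusted p = 0.0418). Cars2 and Tarsl2 are synthetase genes that were not among the 35. Cars2, the mitochondrial cysteine enzyme, was lower in DR than in Rapa by -0.78 ± 0.22 (limma adjusted p = 0.0238). Tarsl2, a cytosolic threonine enzyme, was higher in DR than in AL by 0.65 ± 0.21 (limma adjusted p = 0.048) and than in Rapa by 0.68 ± 0.21 (limma adjusted p = 0.0393).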

How the data were processed

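Intensities of 45281 probes on 24 arrays were deposited without normalization between arrays; 26.7% to 34.3% of an array's values lie below 0, so a background had been subtracted. Each intensity comes with a detection p-value, per the file headers. The authors also deposited a processed score, which has mean 0 and SD 1 on each array (column medians -0.42 to -0.32; log base and added constant unknown) and served as an alternative. Scanner software is not given in the sources used here. RNA was taken from 25 mg of tissue, per the labels' protocols.

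In R 4.3.3, limma 3.58.1 corrected background (neqc, offset 16), applied quantile normalization and log2. The filter asked for detection (p under 0.05) on 8 arrays. In the platform annotation 34885 probes have 1 symbol, 18 several and 10378 none. All 24 arrays entered 1 fit of group means (21 residual degrees of freedom, two-sided moderated test, Benjamini-Hochberg over all kept probes), which was tested on simulated data. The number of arrays limits the precision. Members that were called are given by their levels and differences. Those whose kept probes disagreed are given by at least some of their differences, and the rest by ranges, counts or selected values. Genes of the pathway lists are named where called, and marker lists are given by counts. Members and lists were chosen with earlier results of these data known.

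Deviations of same-numbered arrays correlated above 0.1 in 19 of 24 pairs (-0.07 to 0.55). The mean deviations of the 4 number classes correlated above 0.1 between groups in 12 of 12 (0.13 to 0.65). Class values are means of 2 arrays per group, so the 2 sets of correlations cannot be set against each other. Whether the numbers pair the samples is not settled. The numbers and the classes were each used as a block outside the main fit. Alternatives were both blocks, a block of consecutive numbers, other filters, scalings and backgrounds, the authors' score, probe means, 2 groups only, array and marker exclusions and, chosen after seeing the data, array brightness as a covariate.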

Additional observations from a re-analysis of the deposited data

Results flagged for a closer look

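On 5 of the 93 sets of 8 arrays that were examined (31 probes in 3 groups), the highest or lowest array stood apart from its neighbour by a larger share of the group's range than Dixon's 95% limit allows. Chance gives this in about 5% of groups. Wars was 10.19 (log2 intensity) on AL array 6, where the next AL array was at 8.32. Iars was 6.37 on DR array 3, with the next DR array at 7.41. Ears2, the mitochondrial enzyme for glutamate, was 6.74 on DR array 5, with the next DR array at 7.71. Tars was 5.84 on Rapa array 5, with the next Rapa array at 5.22. Vars2 was 5.68 on AL array 8, with the next AL array at 6.56.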

How the results depend on the processing

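The number of members called was recomputed under each alternative, and no called member changed direction under any of them. In DR against AL, where 0 were called, the replicate block of numbers 1 to 8 gave 1 (Aars, lower), the brightness covariate 3 (Mars, Iars2 and Vars2, higher) and that covariate with the class block 1 (Vars2, higher). In Rapa against AL, where 0 were called, the block of numbers 1 to 8 gave 1 (Mars, lower). In DR against Rapa, where 3 were called, median scaling gave 0, the authors' score 1 (Pars2) and the mean of a gene's kept probes 5 (Sars, Iars2, Pars2, Rars2 and Vars2). The class block gave 4, adding Iars2, and the other alternatives gave 2 to 4. Leaving out 1 array gave 0 in DR against AL, 0 in Rapa against AL and 2 to 3 in DR against Rapa.

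Over all 9836 genes, 1150, 15 and 1123 were called in DR against AL, Rapa against AL and DR against Rapa. With the class block the counts were 1953, 154 and 1887, with the block of numbers 1886, 121 and 1765, with median scaling 577, 3 and 284, and without the 8 arrays over the marker limit 469, 23 and 706. The brightness covariate gave 45 in Rapa against AL and 1763 in DR against Rapa, and with the class block 92 and 1799. The marker covariate gave 749 in DR against AL, and in Rapa against AL the mean of kept probes gave 29, no filter 8, and leaving out 1 array 8 to 36. Median scaling shifted the median of all genes to -0.28, -0.21 and -0.09, with member medians of -0.27, -0.37 and -0.01. It also moved the share of calls that were higher to 11.8% in DR against AL, against 44.4% with quantile normalization, and to 39.8% in DR against Rapa, against 51.5%. The cause of these changes was not tested.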
